A study of Sus scrofa with 5 samples.

Results

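Porcine blastoids are embryo-like structures made from porcine embryonic stem cells (pESCs), and among their cells is a rare group with transcripts of SCRG1 and SOX10. The cells described here were chosen by these 2 genes, as barcodes with at least 3 UMIs (unique molecular identifiers, each standing for 1 captured RNA molecule) of SCRG1 and SOX10 together. A barcode was taken as a cell from 11223 UMIs in library 1 and from 9805 UMIs in library 2. The rule found 111 of 15544 cells, which are called SCRG1/SOX10 cells below. Library 1 held 58 of 7369 cells, a share of 0.787% (exact 95% binomial interval 0.598% to 1.02%), and library 2 held 53 of 8175, a share of 0.648% (0.486% to 0.847%). These intervals overlap and cover counting error only.

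Both libraries are 10x Chromium single-cell libraries of blastoids at day 6. The pESCs came from parthenogenetic blastocysts and were grown in 4FIXY medium on mitomycin C-treated mouse embryonic fibroblast feeders. They were aggregated in 4FXY medium and then moved to iBlastoid medium, which holds LIF, IL-6, sIL-6R, activin A, IGF1, bFGF and BMP4 among its proteins and CHIR99021, XAV939, SB431542, Y-27632, DZNep and TSA among its small molecules. Blastoids with a cavity were picked by mouth and pooled for dissociation, so a library is a pool of picked structures and cannot be divided into single blastoids, and there is no library of another condition. The other 3 libraries of the series are bulk RNA-seq of pESCs in 4FIXY medium. Their names in the table, IVFP25, PA_4P7 and PAP25, differ at the start (1 with IVF and 2 with PA) and at the end (P25 or P7). The spread given over them may therefore include differences of origin or culture.

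The neural crest is a transient population of vertebrate embryos that forms at the border of the neural plate, loses its epithelial junctions, migrates, and gives rise to peripheral glia and neurons, pigment cells and much of the skeleton of the face. The border is patterned by PAX3, PAX7, MSX and ZIC factors. Crest cells then switch on FOXD3, SOX9, SOX10, ETS1, TFAP2B and members of the SNAI, TWIST and ZEB families. SOX10, a transcription factor with an HMG box, is kept in the glial and pigment lineages and is also made by the otic vesicle and by oligodendrocytes, so on its own it does not name a cell. SCRG1 encodes a small secreted protein first described in scrapie-infected brain.

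The libraries held 289452283 and 302211552 UMIs over all barcodes. SCRG1/SOX10 cells had a median of 30162.5 UMIs in library 1 and 30030 in library 2, against 29725 and 27571.5 in all other cells. Single SCRG1/SOX10 cells ran from 11410 to 143915 UMIs and from 10438 to 103642 UMIs, and deep cells weigh more in sums. Their sums came to 2426522 and 1892981 UMIs, so that 3 UMIs, the limit that a count of 0 allows, correspond to 1.24 and 1.58 CPM (counts of a gene per 1000000 UMIs). Scrublet scores likeness to simulated doublets, and the cells with the 434 and 535 highest scores, numbers set in advance, were taken as doublets. They held 5 and 4 SCRG1/SOX10 cells (8.62% and 7.55%), against 5.87% and 6.54% of other cells. The median score was 0.0777 and 0.0757 in SCRG1/SOX10 cells, against 0.0468 and 0.0510 in other cells. The libraries share 9 cell barcodes, none of them of a SCRG1/SOX10 cell. Levels in empty droplets, barcodes with 10 to 100 UMIs, are given below as the level of free RNA.

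The gate genes themselves are described without a test. Most cells had none of their UMIs (7075 in library 1 and 7843 in library 2), 217 and 255 cells had 1, and 19 and 24 cells had 2, just outside the gate. Just inside it, 12 and 8 cells had 3 UMIs, 5 and 8 had 4, and the highest cell of each library had 27. Both genes were found in 41 and 38 of the chosen cells, SCRG1 alone in 16 and 14, and SOX10 alone in 1 and 1. Among cells with 3 or more SCRG1 UMIs, SOX10 was found in 68.0% (95% interval 53.3% to 80.5%, 50 cells) in library 1 and 70.2% (55.1% to 82.7%, 47 cells) in library 2. Among cells with fewer SCRG1 UMIs it was found in 1.34% and 1.17%.

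**Figure D1:**
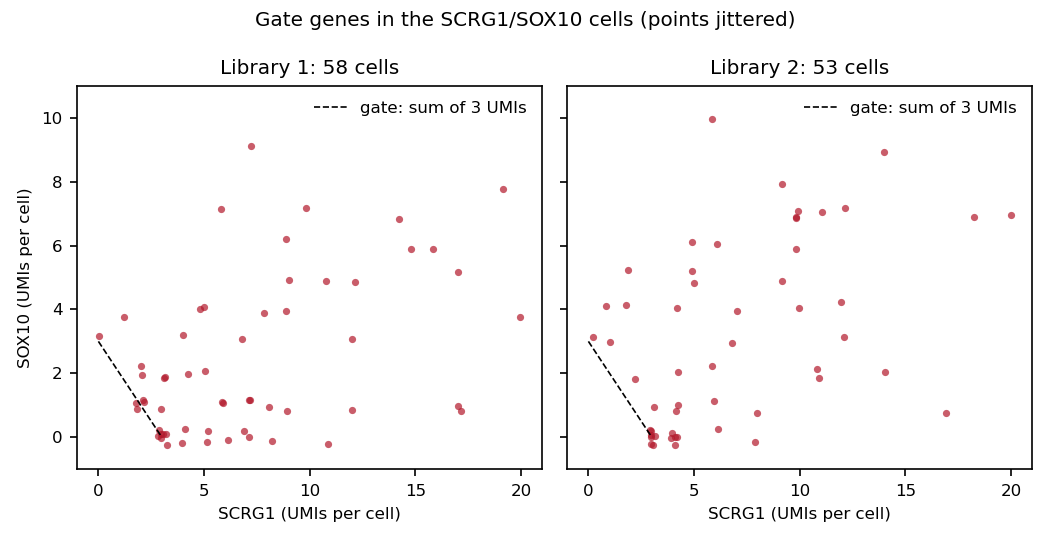
SCRG1 (x axis) and SOX10 (y axis) UMIs in each SCRG1/SOX10 cell, 58 in library 1 and 53 in library 2, with points moved slightly at random so that they do not hide each other. Cells spread away from the dashed gate to 20 SCRG1 UMIs and to 9 or 10 SOX10 UMIs, and 16 and 14 cells lie on the SCRG1 axis without a SOX10 UMI.

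All other genes were compared between SCRG1/SOX10 cells and all other cells by UMI sums per library. With SCRG1 and SOX10 left out, the quasi-likelihood test of edgeR, adjusted after Benjamini and Hochberg over 19763 genes ("edgeR adjusted p" below), called 869 genes higher (4.4% of those tested) and 1370 lower (6.93%) at an adjusted p under 0.05, and the median log2 fold change of all genes was -0.08. With DESeq2 the calls were 1495 higher and 1489 lower, so the share of higher calls went from 38.8% to 50.1%. A cell was chosen for its SCRG1 and SOX10 UMIs, and such a test asks which other genes go with them. With 2 libraries the p-values measure the spread between these pools, which may be technical.

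Transcription factors of the crest were mostly higher. Of 15 listed crest regulators, 10 rose (FOXD3, ETS1, ZEB2, TFAP2B, SOX9, NR2F1, RXRG, SOX5, SNAI1 and TWIST1), TFAP2A fell and SOX8, SNAI2, LMO4 and NR2F2 were not called, and the list's median log2 fold change was 2.11. FOXD3, a forkhead factor of crest and pluripotent cells, stood at 37.9 and 60.8 CPM in the SCRG1/SOX10 cells of libraries 1 and 2 and at 0.704 and 1.22 CPM in other cells. This was a log2 fold change of 5.60 ± 0.33 (SE, edgeR adjusted p = 6.1e-05). FOXD3 was found in 30 of 58 and 29 of 53 of the chosen cells, against 1.52% and 2.25% of the others, so close to every other SCRG1/SOX10 cell showed none at this depth.

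ETS1, an ETS factor of cranial crest, was at 104 and 117 CPM against 8.03 and 6.23 CPM (log2 fold change 3.90 ± 0.15, edgeR adjusted p = 1.0e-05). ZEB2, a repressor of epithelial genes that is needed for crest migration, was at 226 and 288 CPM against 18.04 and 17.2 CPM (3.81 ± 0.12, edgeR adjusted p = 1.0e-05). For both genes the level of the chosen cells was over 12-fold that of the others in either library. TFAP2B, an AP-2 factor, was at 115 and 198 CPM against 11.2 and 11.2 CPM (3.73 ± 0.19), whereas its paralogue TFAP2A was at 196 and 161 CPM against 289 and 265 CPM, with 198 and 180 CPM in empty droplets (-0.67 ± 0.12, edgeR adjusted p = 0.010). The 2 AP-2 genes therefore moved in opposite directions.

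SOX9 and SOX5, SOX factors that act before and beside SOX10 in the crest, were at 109 and 156 CPM against 11.9 and 12.2 CPM, and at 419 and 587 CPM against 122 and 103 CPM. SNAI1, which represses cadherins at delamination, was at 46.2 and 35.4 CPM against 9.51 and 9.001 CPM (2.11 ± 0.16, edgeR adjusted p = 0.00020). Its relative SNAI2 was at 25.6 and 13.7 CPM against 12.3 and 6.88 CPM and did not pass the test (edgeR adjusted p = 0.16), although it did with the library as a replicate block (log2 fold change 0.99). TWIST1, a factor of cranial mesenchyme, was at 316 CPM in library 1 and at only 81.4 CPM in library 2, against 66.4 and 39.5 CPM in other cells. Its call (1.90 ± 0.48, edgeR adjusted p = 0.039) was lost under 7 of the alternative settings, and 3 cells held 50.3% of its UMIs in library 1 and 61.0% in library 2.

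**Figure D2:**
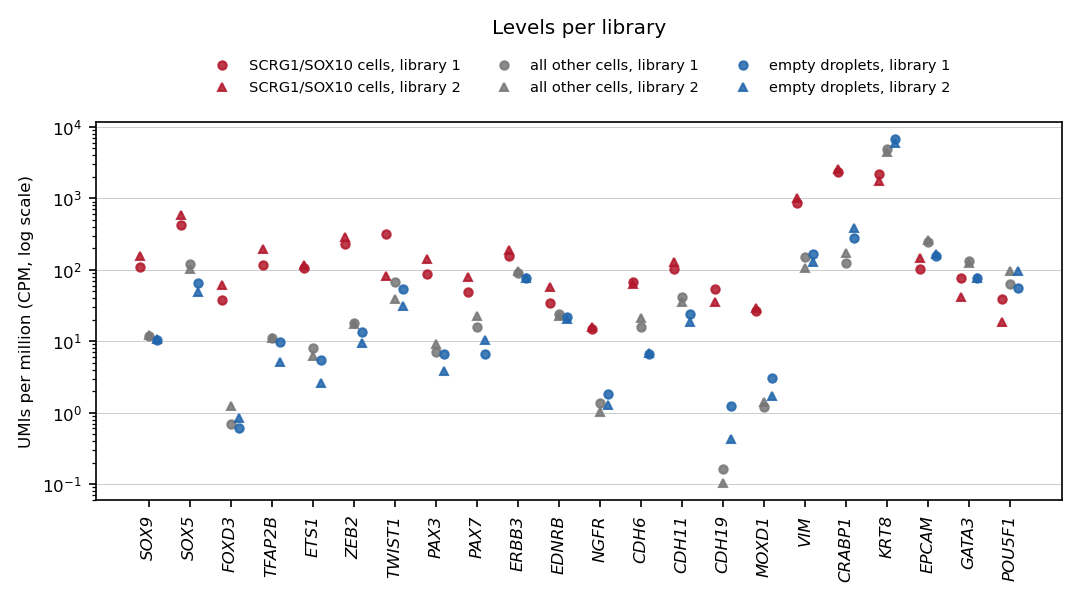
Level of 22 genes in CPM (y axis, log scale) in SCRG1/SOX10 cells, all other cells and empty droplets, with circles for library 1 and triangles for library 2. CDH19 is over 100-fold higher in SCRG1/SOX10 cells than in other cells, KRT8 is lower, and free RNA of CRABP1 lies above the other cells' level.

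Genes of the neural plate border were divided. Of 8 tested, PAX3 and PAX7 rose and the other 6 were not called, with a list median of 0.68. PAX3, a paired-box factor that works with SOX10 in pigment cells, was at 88.2 and 142 CPM against 7.02 and 9.12 CPM (3.76 ± 0.21, edgeR adjusted p = 5.7e-05). PAX7 was at 48.6 and 79.8 CPM against 15.7 and 22.5 CPM (1.67 ± 0.25, edgeR adjusted p = 0.0041), but 3 cells held 40.7% of its UMIs in library 1 and 51.7% in library 2. ZIC1 had no UMI in any SCRG1/SOX10 cell and was at 0.342 and 0.392 CPM in the others, under the limit that a count of 0 allows. MSX1 and MSX2, targets of BMP signalling, were at 54.8 and 41.2 CPM and at 72.1 and 75.0 CPM, against 31.2 and 21.2 CPM and 92.8 and 79.9 CPM, and neither passed the test. MSX1 was called higher with the library as a replicate block (0.83), with DESeq2, with cells from 5000 UMIs and with doublets left out, and MSX2 was called lower with a UMI of each gate gene.

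Receptors through which crest cells read their surroundings rose in 5 of 10 cases and fell in none, with a median of 1.27. NGFR, the low-affinity neurotrophin receptor by which crest cells are often sorted, was at 14.8 and 15.8 CPM against 1.38 and 1.02 CPM (3.62 ± 0.29, edgeR adjusted p = 0.00025). GFRA1, a co-receptor of GDNF, was at 54.0 and 42.3 CPM against 7.29 and 6.90 CPM, and NRP2, a semaphorin receptor, at 53.6 and 48.1 CPM against 13.7 and 12.2 CPM. ERBB3, the neuregulin receptor of Schwann cell precursors, differed less, with 154 and 188 CPM against 89.6 and 97.4 CPM (0.81 ± 0.11, edgeR adjusted p = 0.0025). Empty droplets held 75.6 and 76.8 CPM of it. EDNRB, the endothelin receptor, was at 34.2 and 57.1 CPM against 23.8 and 22.9 CPM (0.88 ± 0.18, edgeR adjusted p = 0.015), a call lost when the gate was set at 2 UMIs. RET, NRP1, CXCR4 and GFRA2 were not called, although RET was called higher under 5 alternatives and CXCR4 under 4 (for both, a gate of 5 UMIs, a UMI of each gate gene, DESeq2 and collagen-rich cells left out). KIT, the receptor of pigment precursors, was called lower with the library as a replicate block (-0.67), with a gate of 2 UMIs and with cells from 5000 UMIs.

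Adhesion and matrix genes gave the largest single difference. CDH19, a cadherin of crest and Schwann cell precursors, was at 54.4 and 35.9 CPM in SCRG1/SOX10 cells and at 0.163 and 0.103 CPM in others, a ratio of 334 and 350 in libraries 1 and 2 and a log2 fold change of 8.37 ± 0.34 (edgeR adjusted p = 1.0e-05). It was found in 29 of 58 and 26 of 53 cells against 0.397% and 0.271%, and its level in empty droplets was 1.22 and 0.427 CPM. Empty droplets held only 1639823 and 2344239 UMIs in all, so these 2 levels rest on very few UMIs. Of 10 listed genes, 8 rose (also ITGA4, RHOB, CDH6, CDH11, VCAN, SPARC and CDH2) and TNC, an extracellular matrix protein, fell from 112 and 91.2 CPM to 39.6 and 35.4 CPM. CDH6, another crest cadherin, was at 67.2 and 63.9 CPM against 16.0 and 21.2 CPM, and RHOB, a small GTPase of delaminating crest, at 281 and 350 CPM against 90.4 and 82.9 CPM. SPARC lost its call with a gate of 2 UMIs and when SCRG1/SOX10 cells rich in collagen UMIs were left out. Over the 4 lists of regulators, border genes, receptors and adhesion genes together, 25 of 43 genes were higher and 2 lower, against 4.4% and 6.93% of all genes. The lists were chosen with earlier results of these data known, so this count and those of the other lists are descriptions.

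Because SOX proteins bind short A- and T-rich sites, the 250 bases before the annotated start of each gene were searched on both strands for ACAAT and ACAAAG, which cannot begin at the same base. The promoters of SOX10, a gate gene, and of CDH19, the named gene with the largest rise among those called, are shown in the gene's own direction, both on the plus strand of Sscrofa11.1 with RefSeq gene starts. They lie at chr5:9890189-9890438 and chr1:155669111-155669360, directly before SOX10 (chr5:9890439-9901746) and CDH19 (chr1:155669361-155758550). Capitals mark a match, with ATTGT being ACAAT on the opposite strand.
SOX10: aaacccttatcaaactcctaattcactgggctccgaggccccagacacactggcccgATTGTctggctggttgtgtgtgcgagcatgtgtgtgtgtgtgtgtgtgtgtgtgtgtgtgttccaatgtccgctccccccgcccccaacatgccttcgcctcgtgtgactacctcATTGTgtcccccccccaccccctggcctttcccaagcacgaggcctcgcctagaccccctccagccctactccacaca
CDH19: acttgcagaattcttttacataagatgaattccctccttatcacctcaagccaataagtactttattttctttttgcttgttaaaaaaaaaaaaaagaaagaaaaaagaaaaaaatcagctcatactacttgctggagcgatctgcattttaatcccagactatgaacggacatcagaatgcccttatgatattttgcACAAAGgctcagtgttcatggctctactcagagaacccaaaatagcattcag
SOX10 held 2 matches and CDH19 1, while SCRG1 (window at chr14:16620342-16620591) and FOXD3 held none. Of all 19522 protein-coding genes with a window, 29.5% held at least 1 match. Of 32 crest, border and glial genes called higher and with a window, 10 did (31.2%), and of the 20 largest rises named below, 5 did, so both shares were near that of all genes.

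Glial genes rose in 8 of 11 cases and fell in 1, with a list median of 1.67. MOXD1, a monooxygenase-like gene of the crest, was at 26.8 and 29.6 CPM against 1.22 and 1.39 CPM (4.38 ± 0.22, edgeR adjusted p = 2.5e-05). S100B and FABP7, glial markers, were at 6.59 and 5.28 CPM against 1.28 and 1.11 CPM and at 11.13 and 11.09 CPM against 3.255 and 3.51 CPM. PMP22 and LGI4 also rose, and FABP7 lost its call when all cells were thinned to 9805 UMIs. GFAP was called on 3 UMIs in each library, a call lost under 7 alternatives, among them the fit with the library as a replicate block. MBP, a late myelin gene, was at 0.412 and 2.11 CPM against 3.255 and 3.35 CPM and was not called.

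Genes of the pigment and neuron branches of the crest were not called higher. None of 5 tested melanocyte genes was called in the comparison as set out above: MITF, the master factor of pigment cells, was at 20.6 and 53.4 CPM against 20.6 and 19.8 CPM (called higher with the library as a replicate block, 0.73, and with a gate of 5 UMIs), and TYR and MLANA had no UMI in a SCRG1/SOX10 cell. Of 11 tested neuron genes none rose in this comparison, and ELAVL3 and PRPH fell, the first from 11.6 and 12.1 CPM to 5.77 and 6.87 CPM, a call lost under 4 alternatives, and PRPH lost its call with a gate of 2 UMIs. ISL1 was called lower under 6 alternatives and NEUROG1 under 5, both with the library as a replicate block among them (-1.29 and -1.43), and STMN2 was called higher under 3 (a gate of 5 UMIs, a UMI of each gate gene and thinned cells). NEUROG2, which starts the sensory programme, had no UMI, which allows up to 1.24 and 1.58 CPM. It was under those levels in other cells as well, so that a difference was not detectable at this depth.

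HOX genes, which mark the position of trunk and hindbrain cells along the body, were scarce in SCRG1/SOX10 cells. Summed over the 36 of 39 listed genes found in the files they reached 29.3 and 22.2 CPM, against 29.8 and 20.0 CPM in other cells and 32.9 and 21.8 CPM in empty droplets, and the median cell had 0. HOXC6 and HOXC8 were called higher among 22 tested, on 1 and 6 UMIs and on 7 and 4 UMIs. These UMIs came from 1 to 3 cells per library, and with a gate of 5 UMIs the fitted direction of both was reversed. HOXC6 also lost its call with the library as a replicate block, with a gate of 2 UMIs and under further alternatives. No HOX gene was called lower.

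Cranial mesenchyme genes rose in 5 of 11 cases, with a median of 0.92. DLX1 and DLX2, homeobox factors of the branchial arches, were at 45.7 and 28.5 CPM against 4.36 and 3.46 CPM (3.23 ± 0.25, edgeR adjusted p = 0.00020) and at 78.7 and 47.5 CPM against 18.9 and 15.5 CPM (1.86 ± 0.21, edgeR adjusted p = 0.0012). ALX1, a frontonasal factor, was at 10.3 and 9.51 CPM against 2.08 and 2.02 CPM. COL1A2 was at 204 and 201 CPM against 99.8 and 64.5 CPM, while COL1A1 (30.9 and 24.3 CPM against 43.2 and 30.7 CPM) and COL3A1 (71.7 and 63.9 CPM against 129 and 73.3 CPM) were not called. The call of COL1A2 was lost with a gate of 2 UMIs, and COL3A1 was called lower with the library as a replicate block (-0.59). Both COL1A1 and COL3A1 were also called lower with a gate of 5 UMIs and in thinned cells. They were called lower without the collagen-rich cells described next as well, but those cells were picked by these genes. That setting therefore lowers both genes by its own rule. PRRX2, at 44.5 and 14.8 CPM against 12.2 and 9.98 CPM, lost its call under 5 alternatives. Of the SCRG1/SOX10 cells, 11 and 5 carried 20 or more UMIs of COL1A1, COL1A2 and COL3A1, and without them 766 genes were higher and 1237 lower. The count of higher genes in the 4 crest lists was then also 25, with TWIST1 and SPARC lost and RET and CXCR4 gained.

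Cartilage genes are also made by early crest under SOX9. ACAN, COL2A1, COL9A1 and COL11A1 rose among 7 tested, and none fell. COL11A1 lost its call with a gate of 2 UMIs. COL2A1, the main cartilage collagen, was at 66.4 and 68.7 CPM against 10.7 and 10.2 CPM (2.64 ± 0.11, edgeR adjusted p = 1.0e-05). COL9A1 was at 70.1 and 83.5 CPM against 10.7 and 13.7 CPM, and its partner COL9A3 at 35.0 and 73.4 CPM against 1.24 and 0.924 CPM. ACAN, the aggrecan core protein, was low at 3.71 and 11.09 CPM against 0.870 and 1.17 CPM.

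Markers of the other SOX10 cell types were mixed. Of 7 otic genes, OC90, an otoconial protein, was at 16.1 and 28.5 CPM against 0.429 and 0.787 CPM (5.11 ± 0.42, edgeR adjusted p = 0.00026) and was found in 22 and 20 cells. PAX2 was at 8.24 and 6.34 CPM against 1.57 and 1.66 CPM from 6 and 7 cells, EYA1 fell from 73.9 and 73.4 CPM to 42.4 and 44.4 CPM, and the other 4 were not called. Of 5 oligodendrocyte genes only PDGFRA, a growth factor receptor also made by mesenchyme and hypoblast, rose, from 7.71 and 6.14 CPM to 27.6 and 40.1 CPM. OLIG2 and NKX2-2 had at most 1 UMI in a library. Beside the crest genes FOXD3, ETS1, ZEB2, TFAP2B, SOX9, PAX3, NGFR and CDH19, the otic genes OC90 and PAX2 were thus also higher in these cells. Of the same lists, further crest genes named above were higher too, TFAP2A, TNC and EYA1 were lower, and the rest were not called.

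**Figure D3:**
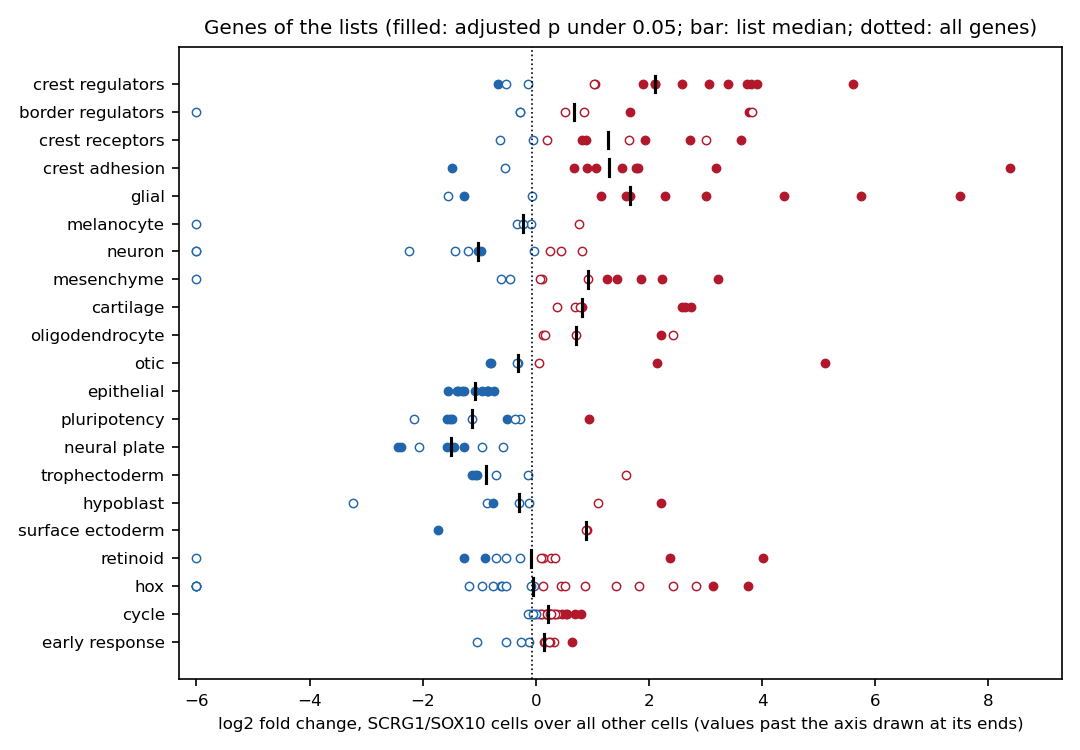
Log2 fold change (x axis) of each listed gene between SCRG1/SOX10 cells and all other cells, 1 row per list, with filled points for an edgeR adjusted p under 0.05, red for higher and blue for lower. Black bars are list medians (2.11 for crest regulators, 1.67 for glial genes and -1.07 for epithelial genes) and the dotted line is the median of all genes (-0.08). Values beyond the axis, all from genes with 0 UMIs in SCRG1/SOX10 cells, are drawn at its end.

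All 11 listed epithelial genes were called lower than in other cells, with a median of -1.07, against 6.93% of all genes. KRT8 and KRT18, the keratin pair of simple epithelia, were at 2157 and 1758 CPM against 4918 and 4504 CPM (-1.31 ± 0.13, edgeR adjusted p = 0.00058), and at 1540 and 1541 CPM against 3888 and 3864 CPM. CDH1, the epithelial cadherin, was at 72.5 and 110 CPM against 167 and 168 CPM, and EPCAM at 103 and 145 CPM against 242 and 257 CPM. With a gate of 2 UMIs the calls of CDH1, EPCAM, CLDN4 and ESRP1 were lost, and without the collagen-rich cells those of CLDN4, CLDN6 and ESRP1.

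The single cells differ more than these sums show. A median SCRG1/SOX10 cell had 9 KRT8 UMIs in library 1 and 6 in library 2, against 141 and 119 UMIs in a median other cell, while the highest had 829 and 490 UMIs and 3 cells held 40.7% and 40.8% of all KRT8 UMIs. These 2 highest cells were deep, with 143915 and 68012 UMIs in all, and neither had a FOXD3 or CDH19 UMI. Such cells weigh heavily in the sums behind each CPM. Summed over the 11 epithelial genes, the median SCRG1/SOX10 cell reached 788 and 806 CPM, against 11151 and 10759 CPM in other cells and 16406 and 15225 CPM in empty droplets, and its range ran from 140 to 18833 CPM and from 287 to 20673 CPM. Free RNA is rich in keratins, and its part in the UMIs of the low cells was not tested.

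VIM, the intermediate filament of migrating and mesenchymal cells, moved the other way. It was at 864 and 1006 CPM against 149 and 105 CPM (2.83 ± 0.16, edgeR adjusted p = 6.1e-05), with a median of 31.5 and 29 UMIs per cell against 1 and 0. CDH2, the neural cadherin, rose only slightly, from 74.7 and 81.6 CPM to 125 and 135 CPM (0.68 ± 0.10, edgeR adjusted p = 0.0037).

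Genes of neighbouring lineages were mostly lower or not called. Of 8 neural plate genes, SOX2, PAX6, OTX2, SIX3 and LHX2 fell and none rose. PAX6 was at 5.36 and 3.70 CPM against 22.0 and 24.5 CPM (-2.38 ± 0.24, edgeR adjusted p = 0.00074), and LHX2 at 4.53 and 1.58 CPM against 15.3 and 18.7 CPM. Of 9 pluripotency genes POU5F1, SOX2, UTF1 and SALL4 fell, POU5F1 from 63.6 and 96.4 CPM to 38.7 and 18.5 CPM (-1.48 ± 0.32, edgeR adjusted p = 0.021), and ETV5, an ETS factor downstream of FGF, rose from 16.0 and 21.7 CPM to 30.9 and 45.4 CPM. The calls of POU5F1 and ETV5 were each lost under 2 alternatives, those of SOX2 and SALL4 were lost with a gate of 2 UMIs, and SIX3 changed sign with a gate of 2 UMIs. DNMT3B was called lower with the library as a replicate block (log2 fold change of DNMT3B against others -1.06), with DESeq2 and with cells from 5000 UMIs.

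Of 6 trophectoderm genes GATA2, GATA3 and HAND1 fell, with GATA3 at 76.7 and 41.7 CPM against 132 and 125 CPM, and HAND1 lost its call with a gate of 2 UMIs. TEAD4 was called lower under 5 alternatives, among them the library as a replicate block (-0.71). Of 3 tested surface ectoderm genes, whose median was 0.88, KRT5 and KRT15 had at most 3 UMIs in a library and were not called. The third, the factor TP63, fell from 84.2 and 67.6 CPM to 23.5 and 23.8 CPM (-1.73 ± 0.17, edgeR adjusted p = 0.00055). Of 7 tested hypoblast genes PDGFRA rose and APOA1 fell, and the other 5 were not called, although GATA4 was called higher with the library as a replicate block (1.08). SOX17 had 1 and 0 UMIs and FOXA2 none.

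CRABP1, a cytosolic carrier of retinoic acid that is strong in migrating crest and in early neural tissue, had the largest rise among genes at 50 CPM or more in the SCRG1/SOX10 cells of both libraries. It stood at 2369 and 2582 CPM against 122 and 172 CPM, a log2 fold change of 4.02 ± 0.17 (edgeR adjusted p = 1.0e-05), and free RNA held 281 and 380 CPM. It was found in 50 of 58 and 47 of 53 SCRG1/SOX10 cells, but the median cell had 33 and 61 UMIs and the highest 396 and 444. Among 12 tested genes of the retinoid pathway STRA6, a retinol importer, also rose on 9 and 26 UMIs, a call lost under 5 alternatives. RARB, a receptor that retinoic acid induces, fell from 43.7 and 45.6 CPM to 19.0 and 19.5 CPM (-1.26 ± 0.13, edgeR adjusted p = 0.00075) and DHRS3, a retinal reductase, from 26.6 and 23.1 CPM to 11.13 and 16.9 CPM. RARB lost its call with a gate of 2 UMIs and DHRS3 without the collagen-rich cells. The other 8 were not called, although CYP26A1, which degrades retinoic acid, was called lower with the library as a replicate block (-0.88), with a gate of 5 UMIs and with a UMI of each gate gene.

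Of the cell cycle genes a few were slightly higher. PCNA, UHRF1, MCM6, RRM2 and MCM3 rose among 24 and none fell, with a list median of 0.21. PCNA, the replication clamp, was at 243 and 248 CPM against 131 and 142 CPM (0.80 ± 0.10, edgeR adjusted p = 0.0015). MCM3 and MCM6 lost their calls with a gate of 2 UMIs, and MCM3 also in thinned cells and without the collagen-rich cells. Genes of mitosis, among them MKI67, TOP2A, CCNB1 and PLK1, were not called, although TOP2A and CCNB1 were called higher with DESeq2 and CCNB1 and BIRC5 in thinned cells. Of 10 early-response genes, which rise during dissociation, JUNB was called higher (100.97 and 137 CPM against 77.9 and 67.9 CPM), a call lost in thinned cells. With the library as a replicate block FOSB and ATF3 were called lower (log2 fold change of FOSB against others -1.04, and log2 fold change of ATF3 against others -0.53), as each was under 2 other alternatives.

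Among genes at 50 CPM or more in the SCRG1/SOX10 cells of both libraries, the 20 largest rises were CRABP1, ETS1, ZEB2, PAX3, TFAP2B, NPY, MEF2C, SOX9, TMSB15A, NLGN1, DLC1, NR2F1, ADAM12, SHF, VIM, NCAM2, COL2A1, COL9A1, GRIK2 and ENC1. MEF2C, a MADS-box factor needed in craniofacial crest, was at 81.6 and 80.8 CPM against 8.66 and 4.46 CPM (3.59 ± 0.32, edgeR adjusted p = 0.00039). NLGN1, a synaptic adhesion gene, was at 326 and 410 CPM against 35.2 and 34.7 CPM, and DLC1, a GTPase-activating protein, at 148 and 171 CPM against 19.4 and 15.5 CPM. ADAM12, a metalloprotease, was at 87.4 and 70.3 CPM against 10.6 and 7.89 CPM. NPY, which encodes neuropeptide Y, differed between libraries, with 71.7 and 281 CPM against 14.3 and 12.8 CPM, and 3 cells held 64.6% of its UMIs in library 2.

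The 10 largest falls, among genes at 50 CPM or more in other cells, were PRSS35, CYP17A1, GRM8, ME1, ROBO2, PRR16, EPAS1, EPB41L3, NTRK2 and SGIP1. CYP17A1, a cytochrome of steroid synthesis, was at 44.1 and 15.8 CPM against 161 and 124 CPM (-2.23 ± 0.31, edgeR adjusted p = 0.0027). NTRK2, the receptor of brain-derived neurotrophic factor, was at 255 and 181 CPM against 829 and 709 CPM, and ME1, a malic enzyme, at 69.6 and 60.8 CPM against 261 and 241 CPM.

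Across all cells thinned to 9805 UMIs, the 10 genes whose UMIs followed the gate sum most closely were CDH19, FOXD3, FAM212A, COL9A3, COL11A2, ETS1, ZEB2, INSC, PAX3 and CRABP1. Spearman's rank correlation was 0.335 and 0.223 for CDH19 and 0.200 and 0.229 for FOXD3 over 7369 and 8175 cells, and 0.115 and 0.130 for CRABP1, the 10th. Most cells share a count of 0 for both measures and the cells of a library share its free RNA, so these low values only order the genes. FAM212A, first known as a crest gene induced by AP-2, was at 40.8 and 50.2 CPM against 1.86 and 1.501 CPM, and INSC, an adaptor of spindle orientation, at 25.1 and 22.7 CPM against 0.417 and 0.441 CPM. COL11A2 was at 14.8 and 23.8 CPM against 0.417 and 0.468 CPM.

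SCRG1/SOX10 cells can be divided by whether a SOX10 UMI was found, which is a description, since the rule used SOX10 and cells with SCRG1 alone lie nearer to the gate (a median of 4 and 3.5 SCRG1 UMIs, against 7 and 7.5 in cells with both genes). The 41 and 38 cells with UMIs of both gate genes carried FOXD3 at 53.3 and 92.9 CPM, whereas the 16 and 14 cells with SCRG1 alone carried it at 6.47 and 0 CPM. A FOXD3 UMI was found in 27 of 41 and 29 of 38 cells of the first kind and in 3 of 16 and 0 of 14 of the second. ZEB2 was at 303 and 407 CPM against 64.7 and 48.2 CPM, TFAP2B at 159 and 251 CPM against 25.9 and 101.2 CPM, and CDH19 at 75.4 and 54.1 CPM against 11.6 and 1.61 CPM. CRABP1 was at 2679 and 3690 CPM against 1784 and 509 CPM, with 84.5% of the UMIs of SCRG1-alone cells of library 2 in 3 cells.

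KRT8 ran the other way, with 1594 and 938 CPM in cells with both genes and 3382 and 3463 CPM in cells with SCRG1 alone. The median cell of the first kind had 8 and 5 KRT8 UMIs and that of the second 54 and 101.5, both below the 141 and 119 UMIs of other cells. TMSB15A, an actin-binding thymosin, was also higher in SCRG1-alone cells, with 849 and 352 CPM against 142 and 88.8 CPM. The median depth was 30444 and 28382 UMIs in cells with both genes and 28674 and 36260.5 UMIs with SCRG1 alone, and 4 and 2 of the first kind and 1 and 2 of the second were called doublets. These differences were not tested. Requiring a UMI of each gene left 43 and 40 cells, some of them with only 2 gate UMIs, and gave 1151 genes higher and 1661 lower.

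**Figure D4:**
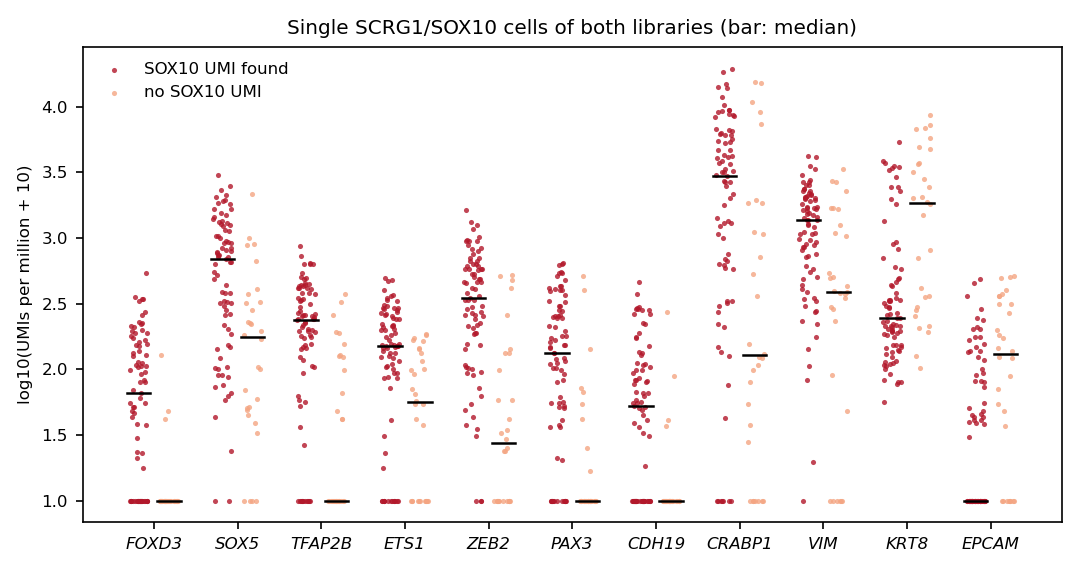
Level of 11 genes in single SCRG1/SOX10 cells of both libraries, as log10 of CPM plus 10 (y axis), for cells with a SOX10 UMI (dark) and without one (light). Black bars are medians, and cells at 1.0 had no UMI of the gene. FOXD3, PAX3 and CDH19 were found in a larger share of cells with a SOX10 UMI than without one, ZEB2 was also found in 11 of 16 and 7 of 14 cells without one, and the median of KRT8 is higher in cells without one.

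SCRG1/SOX10 cells were next set beside 3 other groups, each gated on raw UMIs of its own genes and holding no SCRG1/SOX10 cell. NEUROG1/THSD7B cells (at least 3 UMIs of these genes) numbered 189 and 175, CRABP1 cells (at least 10 UMIs) 279 and 495, and collagen cells (at least 20 UMIs of COL1A1, COL1A2 and COL3A1) 669 and 464. Cells that met 2 or more of these gates, 45 and 21, went with the remaining cells. No NEUROG1/THSD7B or collagen cell thus held 10 or more CRABP1 UMIs, and no CRABP1 cell held 20 or more collagen UMIs. SCRG1/SOX10 cells with such counts were kept, so genes that go with CRABP1 or collagen UMIs may differ in part by this rule. Its part was not tested. The gates overlap with that of the SCRG1/SOX10 cells: 44 and 41 SCRG1/SOX10 cells also met the CRABP1 gate, 11 and 5 the collagen gate, and 2 and 1 the NEUROG1/THSD7B gate. All groups entered 1 edgeR fit over 16049 genes, so the 3 comparisons share the sums of the SCRG1/SOX10 cells.

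Against NEUROG1/THSD7B cells, 1839 genes were higher (11.5%) and 1797 lower (11.2%). Of the crest regulators 10 rose and TFAP2A and NR2F2 fell, and of 10 tested neuron genes 7 fell (NEUROD1, NEUROG1, ELAVL3, ISL1, ELAVL4, PHOX2A and STMN2), of which NEUROG1 set the other group's gate. Glial genes rose in 7 of 11 cases and fell in 2, while their summed level was 164 and 204 CPM against 185.1 and 185.0 CPM. HAND2, a factor of sympathetic neurons that mesenchyme also makes, was the 1 neuron gene that rose (16.9 and 6.87 CPM against 2.58 and 0.461 CPM, log2 fold change 3.01 ± 0.87, edgeR adjusted p = 0.028). NEUROD1, a factor of sensory neurons, had 0 and 1 UMIs in SCRG1/SOX10 cells (0.528 CPM in library 2) and stood at 39.3 and 36.9 CPM in the other group. Among genes at 50 CPM or more in both libraries of the group where they were higher, and leaving out the gate genes of the groups compared, a limit that holds for the largest rises and falls of all 3 comparisons, the largest falls were GAL, NFASC, PPP1R14A, ROBO2 and SH3GL2. GAL, which encodes the neuropeptide galanin, was at 7.42 and 4.75 CPM against 147 and 149 CPM (-4.58 ± 0.25, edgeR adjusted p = 3.8e-07). Within that limit VIM, ZEB2, ETS1, MEF2C and CRABP1 were the largest rises, with VIM at only 24.7 and 17.8 CPM in NEUROG1/THSD7B cells (5.44 ± 0.18, edgeR adjusted p = 9.6e-09). The rise of CRABP1 is in part built in, since NEUROG1/THSD7B cells with 10 or more CRABP1 UMIs had been moved out. CDH19 had no UMI there in either library.

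Against CRABP1 cells, 1481 genes were higher (9.23%) and 1183 lower (7.37%). When counts were scaled by the total only, this became 975 higher and 1682 lower, so the share of higher calls went from 55.6% to 36.7% and the median of all genes from -0.0049 to -0.11. Of 15 crest regulators 13 rose and none fell, and of 8 neural plate genes 7 fell. Of 11 glial genes 3 rose, 1 fell and 7 were not called, and their summed level was 164 and 204 CPM against 167 and 175 CPM, so that the groups overlapped. Of 11 epithelial genes 9 fell and none rose. LHX2 and SIX3, forebrain homeobox factors, were at 4.53 and 1.58 CPM against 211 and 176 CPM (-5.78 ± 0.30, edgeR adjusted p = 9.5e-07) and at 16.5 and 8.98 CPM against 238 and 240 CPM (-4.07 ± 0.30, edgeR adjusted p = 6.3e-06). FEZF1, LOC100514051 and SPP1 completed the 5 largest falls within the 50 CPM limit. ETS1, TWIST1, MEF2C, ADAM12 and COL3A1 were the largest rises within it, with ETS1 at 104 and 117 CPM against 8.12 and 6.92 CPM (4.00 ± 0.27, edgeR adjusted p = 4.3e-06). The rise of COL3A1 is in part built in, since CRABP1 cells rich in collagen UMIs had been moved out. ETS1, MEF2C and ADAM12 were also higher in collagen cells than in CRABP1 cells (ADAM12 at 70.0 and 83.2 CPM against 9.79 and 6.74 CPM). The same rule may thus add to their rises, which was not tested. Collagen-rich SCRG1/SOX10 cells were kept. COL3A1 lost its call without them, but they were picked in part by its UMIs. That setting therefore lowers COL3A1 by its own rule.

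The border factors and cadherins were divided in this comparison. PAX3 was at 88.2 and 142 CPM against 72.4 and 63.3 CPM (0.85 ± 0.19, edgeR adjusted p = 0.0089), but PAX7 was lower in SCRG1/SOX10 cells, with 48.6 and 79.8 CPM against 217 and 209 CPM (-1.65 ± 0.25, edgeR adjusted p = 0.0010). CDH6 was lower too, with 67.2 and 63.9 CPM against 288 and 245 CPM (-1.91 ± 0.17, edgeR adjusted p = 3.0e-05). NPY was not called (71.7 and 281 CPM against 142 and 86.0 CPM).

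Against collagen cells, 1238 genes were higher (7.71%) and 1611 lower (10.0%). When counts were scaled by the total only, this became 1619 higher and 1422 lower, and the share of higher calls went from 43.5% to 53.2%. Here the regulators split: FOXD3, TFAP2B, RXRG, SOX9, ETS1, ZEB2 and TFAP2A were higher, SNAI2 and NR2F2 lower, and SOX5, NR2F1, SNAI1, SOX8, LMO4 and TWIST1 were not called. Adhesion and matrix genes of the crest split as well, with CDH19, CDH6, ITGA4 and RHOB higher and TNC, SPARC, VCAN and CDH11 lower among 10 (median -0.15), and the summed level of this list was 1019 and 1061 CPM against 1457 and 1642 CPM. Of 11 epithelial genes ESRP1, CLDN7 and CLDN4 were higher, KRT8, KRT19 and KRT18 lower and 5 not called (median 0.21). Glial genes were higher in 5 of 11 cases and lower in none. VIM did not pass the test either (864 and 1006 CPM against 930 and 945 CPM), nor did ADAM12. PAX3, which collagen cells nearly lacked, was at 88.2 and 142 CPM against 1.69 and 0.737 CPM (6.35 ± 0.29, edgeR adjusted p = 1.4e-07), and CRABP1, TFAP2B, NPY and CDH6 were the other largest rises within the 50 CPM limit. The rise of CRABP1 is again in part built in, since collagen cells with 10 or more CRABP1 UMIs had been moved out. PAX3, TFAP2B, NPY and CDH6 were also higher in CRABP1 cells than in collagen cells (PAX3 at 72.4 and 63.3 CPM in CRABP1 cells). The same rule may thus add to their rises, and its part was not tested. The largest falls within the 50 CPM limit, which leaves out COL1A1, COL1A2 and COL3A1 as gate genes, were CNTNAP5, DCN, TEK, HOXB2 and PTX3. DCN, the proteoglycan decorin, was at 23.1 and 4.23 CPM against 312 and 332 CPM (-4.51 ± 0.43, edgeR adjusted p = 2.1e-05). HOX genes were lower in 13 of 22 cases and higher in none, with a summed level of 29.3 and 22.2 CPM against 240 and 285 CPM.

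**Figure D5:**
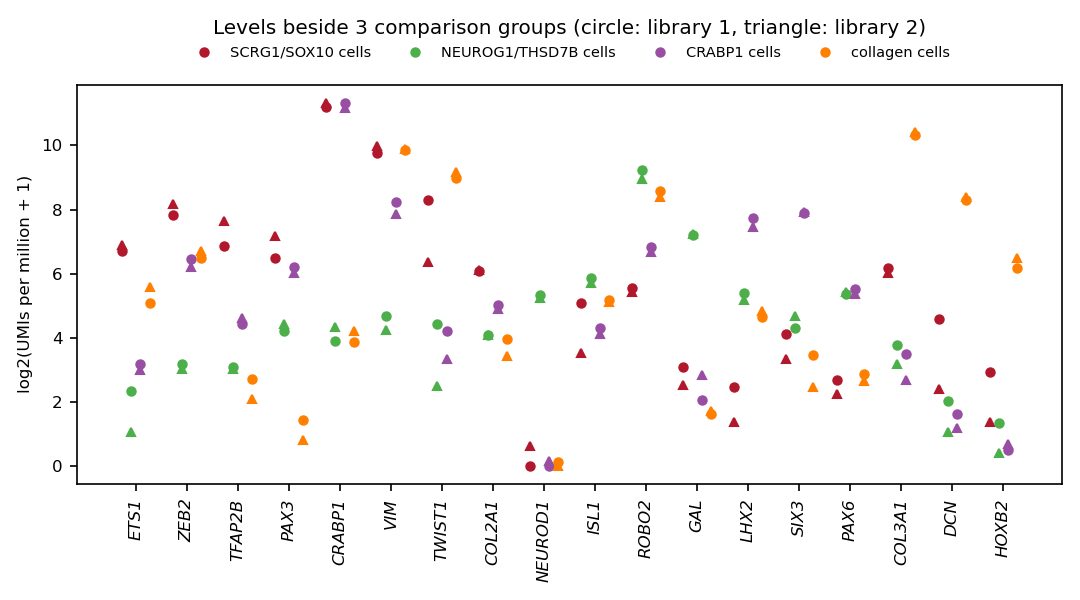
Level of 18 genes as log2 of CPM plus 1 (y axis) in SCRG1/SOX10 cells and 3 comparison groups, with circles for library 1 and triangles for library 2. ETS1, ZEB2 and TFAP2B are highest in SCRG1/SOX10 cells, CRABP1 is shared with CRABP1 cells, VIM with collagen cells, and LHX2 and SIX3 mark CRABP1 cells. CRABP1 and COL3A1 chose the cells of 1 group each and kept cells out of the other comparison groups.

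Several of these genes were near or at 0 in bulk pESCs and others were well above it. In the 3 pESC libraries SCRG1 was at 0.0405 ± 0.0217 FPKM and SOX10 at 0.352 ± 0.397 FPKM (mean ± SD, n = 3), and TFAP2B, PAX3 and CDH19 were listed at 0 in all 3. ETS1 was at 0.509 ± 0.0947 FPKM. ZEB2 and SOX9 were at 2.02 ± 0.601 and 2.49 ± 0.626 FPKM, and SNAI1 at 7.31 ± 2.78 FPKM. VIM was at 43.1 ± 16.2 FPKM, COL2A1 at 14.2 ± 4.87 FPKM, COL9A1 at 22.3 ± 2.09 FPKM and SPARC at 105 ± 44.1 FPKM. FOXD3 was present, at 8.66 ± 3.76 FPKM, as were ERBB3 at 53.3 ± 9.92 FPKM, CRABP1 at 5.79 ± 0.557 FPKM and POU5F1 at 526 ± 105 FPKM. FPKM of whole cultures and UMIs of single cells are different units, so the values stand beside each other without a test.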

How the data were processed

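The deposited single-cell files hold raw UMI counts for every barcode, which the authors made with Cell Ranger 7.1.0 on susScr11 after a quality check with Dr.seq2. The deposited bulk table holds FPKM per transcript, for which the authors trimmed reads (Trim Galore 0.6.4), mapped them to susScr11 (HISAT2 2.2.1) and ran StringTie 2.2.1. The depth of the bulk libraries is unknown, and FPKM were summed over the transcripts of a symbol and given as mean and SD. Library names in that table carry no replicate number. The submitters' processing notes also name Seurat 4.3.0. The labels leave the 10x chemistry version open, and whether intron reads were counted is not given in the sources used here. Counts of genes with long introns, such as NLGN1, SOX5 and GRIK2, may include unspliced RNA.

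Cells and SCRG1/SOX10 cells were taken by the UMI limits in the text. UMI counts were summed per library and group, giving 4 sums for the comparison with all other cells and 10 for the comparison groups, and were tested with edgeR 4.0.16 in R 4.3.3 (TMM, filterByExpr, quasi-likelihood test, Benjamini-Hochberg adjustment, adjusted p under 0.05). This test reports no standard error. Each SE given is the absolute log2 fold change divided by the square root of the test's F statistic, and is thus approximate. Alternatives were other gates (2 or 5 UMIs, or a UMI of each gene), cells from 5000 UMIs, a mitochondrial filter, doublets left out (Scrublet in scanpy 1.11.5, whose own threshold marked 1 and 0 cells, so the 434 and 535 highest scores at 0.8% per 1000 cells were used), thinned cells, DESeq2 1.42.0, other scalings, no filter and the library as a replicate block. The sums of 1 library share its preparation, which pairs them by origin, although their deviations correlated at only 0.071 over 19763 genes. On counts simulated for the comparison with other cells, over 19763 genes and with 1 dispersion for all genes, 30 of 100 genes changed 1.5-fold and 100 of 100 changed 4-fold were recovered, with 6 false calls. The changed genes were drawn from those with at least 10 expected UMIs in the smallest sum. The recovery thus does not cover lower genes or genes carried by a few cells.

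The genes named are those of 21 marker lists, the 20 largest rises and 10 largest falls at 50 CPM or more, 5 rises and 5 falls per comparison group, and the 10 genes most correlated with the gate. COL9A3, FAM212A, INSC and COL11A2 come from the last. The cells and the lists were chosen with earlier results of these data known. RefSeq (Sscrofa11.1) holds 29862 of the 30029 gene names of the count files (99.4%). Some genes of the lists are not reported here by name, but they remain in the counts of their lists.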

Additional observations from a re-analysis of the deposited data

How the results depend on the processing

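The precision of these results is set by 111 cells in 2 libraries, so leaving out 1 library leaves values without a test. Against other cells, leaving out library 1 moved the values of 42 named genes by more than the spread between libraries, and leaving out library 2 those of 26. That spread is the SD of the 2 values with a library left out. A value midway between them cannot count as moved, so these counts do not measure robustness. A gate on thinned cells kept 27 and 29 cells, so the number of cells depends on depth. Against other cells, a gate of 2 UMIs gave 576 genes higher and 786 lower, and DESeq2 gave 1495 higher. With thinned cells 1041, 779 and 752 genes were higher against NEUROG1/THSD7B, CRABP1 and collagen cells, and scaling by the total count only gave 975 higher against CRABP1 cells. The 25 crest and border genes counted as higher came with 2 counted as lower, which became 4 with a gate of 5 UMIs, with a UMI of each gate gene, with cells from 5000 UMIs and with thinned cells. Single genes turned: the log2 fold change of SIX3 against others was 0.0659 with a gate of 2 UMIs, the log2 fold change of HOXC6 against others was -7.0855 with a gate of 5 UMIs and -7.0867 with a UMI of each gene, and the log2 fold change of HOXC8 against others was -8.2820 with a gate of 5 UMIs. HOXC6 and HOXC8 rested on few UMIs from few cells, so their values do not measure the size of a fall. The causes of the other shifts were not tested. With the library as a replicate block, 987 genes were higher and 1699 lower against other cells, 20 of the named genes gained a call and 2, GFAP and HOXC6, lost it. A gate of 5 UMIs also gave a call to 20 named genes, DESeq2 to 17 and thinned cells to 13. The gate of 2 UMIs took the call from 24 named genes. Leaving out SCRG1/SOX10 cells rich in collagen, an alternative chosen after seeing the data, took it from 13, and the mitochondrial filter from none of the 246 named genes tested.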
